A study of Caenorhabditis elegans with 6 samples.

Results

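The genes described here encode the mitochondrial respiratory chain of Caenorhabditis elegans. They were taken by symbol as the nuo, cox, atp, sdha, sdhb, ucr and cyc genes that carry a number, plus gas-1, nduf-7, mev-1, sdhd-1, isp-1, asb-1, asb-2, asg-1, asg-2 and lpd-5. The reference gene table held 47 such genes. Of these, 43 had a probe set of their own among the 17118 genes named on the array, and the remaining 4 (nuo-3, ucr-11, cox-14 and cox-16) were not analysed here. The 43 genes had 59 probe sets, and each gene was represented by the probe set with the highest mean. The set is wider than its name, because 6 of the cox genes encode assembly factors of complex IV and not subunits.

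Whole worms of the wild-type strain N2, matched in age at the third larval stage (L3) and kept at 20 °C, were held in 50% K-medium, a salt solution, with about 2000 worms to a dish. The Au-NP group of 3 dishes received citrate-coated gold particles of 4 nm at 5.9 mg/L, a concentration the labels call the LC10, for 12 h. A recovery of 12 h in medium without particles followed, and RNA was taken at 24 h. The control group also had 3 dishes and is named only as control. The labels' protocol text describes the particle treatment in the same words for every sample and does not say what the control dishes held, so the groups here follow the sample titles. Nothing says that dishes came from separate cultures, so p-values measure the spread between dishes. "Higher" and "lower" below mean in the arrays labelled Au-NP.

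The respiratory chain passes electrons from NADH (complex I) or succinate (complex II) through ubiquinone to complex III, then by cytochrome c to complex IV, where oxygen is reduced. Complexes I, III and IV pump protons, and complex V, the ATP synthase, uses the gradient to make ATP. Most subunits are encoded in the nucleus, while a few central ones are encoded in the mitochondrial genome. In C. elegans, partial loss of several of these genes, isp-1 and nuo-6 among them, is known to lengthen life, and loss of mev-1 or gas-1 is known to make worms sensitive to oxidative stress.

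Whole-worm arrays cannot tell fewer cells of a type from less RNA per cell. Array medians lay between 7.03 and 7.09 on the log2 scale. Au-NP replicate 3 stood apart from its group, with a correlation across probe sets of 0.988 to replicate 1 and 0.990 to replicate 2, against 0.997 between replicates 1 and 2. Its correlations to control replicates 1, 2 and 3 were of similar size, at 0.990, 0.987 and 0.989. Marker lists of pharynx and body-wall muscle moved with the groups. All 3 pharynx markers (myo-1, myo-2 and pha-4) were lower, and their summed linear signal was 3338 to 3766 in control arrays and 1207 to 1737 in Au-NP arrays. Of 4 body-wall muscle markers, unc-54, myo-3 and unc-15 were lower and hlh-1 was not past the threshold. Their summed signal was 21487 to 23575 in control and 11827 to 15958 in Au-NP arrays. The lower genes of these lists are long, from 6594 bp (unc-15) to 8112 bp (myo-1) from start to end, introns counted. In the longest of 5 equal groups of genes by this length, 12.7% were lower and 3.4% higher. Over all genes 4.45% were lower and 7.09% higher. Of the germ-line markers 1 of 4 (glh-1) was lower, and at an unadjusted limma p under 0.05, 2 of 4 were. The others were pgl-1 at -0.64 (limma adjusted p = 0.0565), glp-1 at -0.25 and fbf-1 at 0.10. The summed germ-line signal was 3111 to 3809 in control and 1977 to 2709 in Au-NP arrays. Of the intestinal markers 1 of 5 (act-5) was lower, and of the neuronal ones 1 of 4 (unc-119) was higher. No marker of hypodermis, sperm or oocytes was called (at an unadjusted limma p under 0.05, 1 of these 10 was higher and 1 lower). The part of these differences in the results below was not tested.

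A large subunit gene in each of complexes I, II and V was lower in the exposed worms, 3 of 6 genes that help build complex IV were higher, and most members did not pass the threshold. Of the 43 genes 3 were lower (sdha-1, nuo-5 and atp-1), 4 were higher (cox-17, cox-19, cox-11 and asg-2) and 36 did not pass. That is 6.98% lower and 9.30% higher. Over all 17118 genes, each with 1 probe set, 4.45% were lower and 7.09% higher, so the share of respiratory chain genes called is near the background in both directions. The median log2 difference (Au-NP minus control) was 0.10 over the 43 genes and 0.04 over all genes. In 20 of the 43 members the 3 Au-NP values lay wholly above the control values and in 5 wholly below, where over all genes 21.1% lay wholly above and 9.5% wholly below. Falls and rises were counted by limma with Benjamini-Hochberg adjustment over all probe sets, at a threshold of 0.05. Most of the members are bright, with 34 of the 43 in the brightest 10% of genes by mean signal. Of these 34, 1 was higher and 2 were lower, where of all 1712 genes that bright 14.9% were higher and 7.54% lower. The median difference was 0.09 for the 34 and 0.12 for the 1712. The Au-NP values lay wholly above the control values in 16 of the 34 and in 688 of the 1712. They lay wholly below in 4 of the 34 and in 244 of the 1712.

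**Figure D1:**
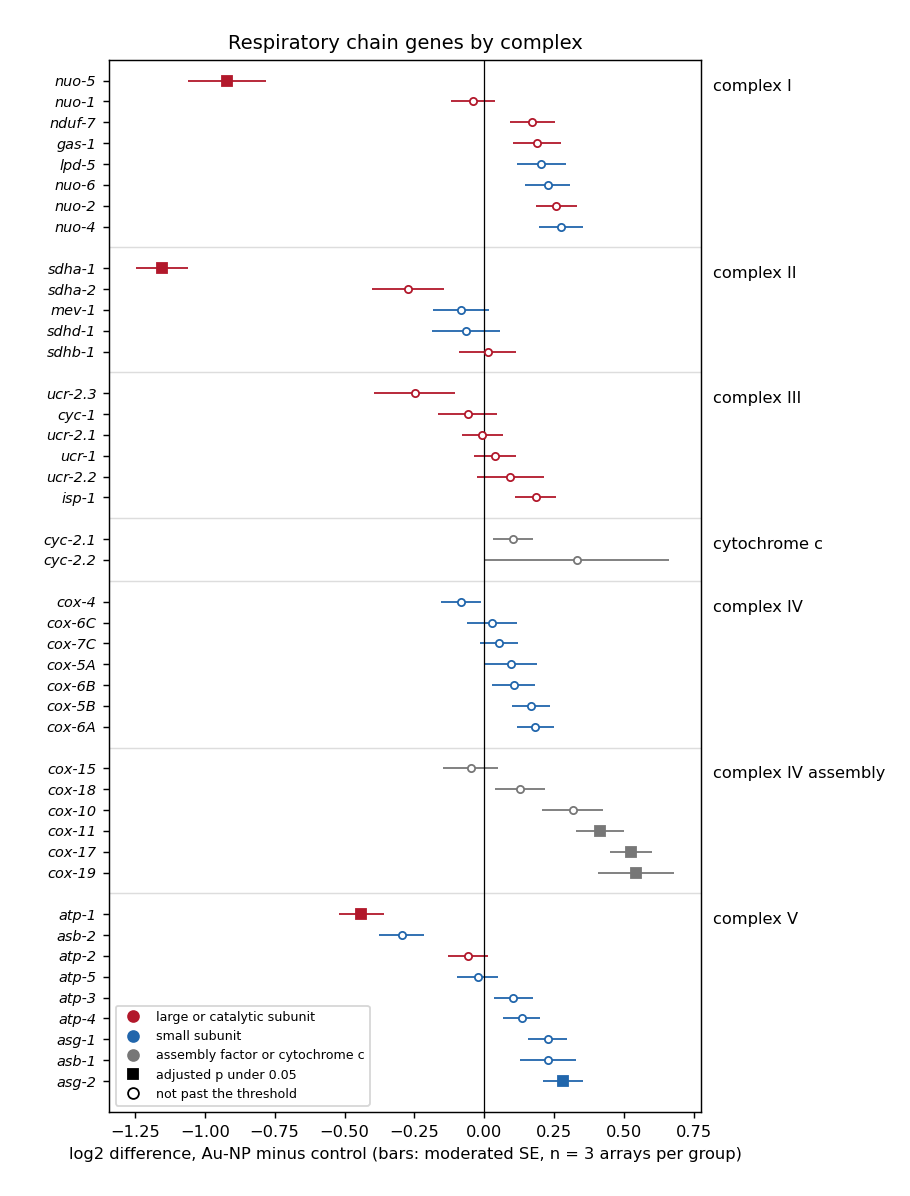
Log2 difference (Au-NP minus control) of the 43 respiratory chain genes, grouped by complex, with the moderated standard error as a bar (n = 3 arrays per group); filled squares passed an adjusted p of 0.05 and open circles did not. The genes sdha-1, nuo-5 and atp-1 stand to the left, and cox-11, cox-17 and cox-19 to the right.

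The lowest value of the set was that of sdha-1, the flavoprotein of succinate dehydrogenase, which oxidises succinate and joins the citric acid cycle to the chain. Its log2 signal was 10.30, 10.04 and 10.14 in control replicates 1 to 3 and 9.01, 9.09 and 8.93 in Au-NP replicates 1 to 3. The 2 groups lay 0.95 log2 units apart at their nearest values. The difference was -1.15 ± 0.09 (SE, n = 3 per group), a 2.22-fold fall, with a limma adjusted p of 0.00239. The call held under each of the 15 alternatives in which it was refitted. The size depended on the probe set, since the dimmer one of sdha-1 gave -0.31 (limma adjusted p = 0.0367), and the mean of both gave -0.73.

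The other genes of complex II stayed closer to the controls. The second flavoprotein gene, sdha-2, had 9.17, 9.45 and 9.55 in control and 9.31, 8.97 and 9.06 in Au-NP arrays, and the groups overlapped. Its difference was -0.27 ± 0.13 (SE; limma adjusted p = 0.236). The iron-sulfur subunit gene sdhb-1, which takes electrons from the flavoprotein, had 12.65, 12.61 and 12.68 in control and 12.50, 12.63 and 12.85 in Au-NP arrays. Its difference was 0.01, with a 95% interval of -0.22 to 0.25. For mev-1 and sdhd-1, the membrane anchors that hold the ubiquinone site, the differences were -0.08 (95% interval -0.32 to 0.15) and -0.07 (-0.35 to 0.22). The upper bound of the sdha-1 interval, -0.94, lies below the lower bound of each of these 4 genes, the lowest of which was -0.58 for sdha-2. That holds for the brighter sdha-1 probe set only. The interval of the dimmer one, -0.48 to -0.14, overlaps those of all 4 genes.

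Among the 8 complex I genes of the set, 1 was called, nuo-5, which encodes the large iron-sulfur subunit of the NDUFS1 type in the electron-carrying arm. Its signal was 11.66, 11.72 and 11.59 in control arrays and 11.02, 10.73 and 10.45 in Au-NP arrays. All Au-NP values lay below all control values, with the lowest in Au-NP replicate 3. The difference was -0.92 ± 0.14 (SE), a 1.89-fold fall (limma adjusted p = 0.0102), and the second nuo-5 probe set gave -0.82 (limma adjusted p = 0.0190). Without Au-NP replicate 2 the value was the same to 2 decimals and the limma adjusted p was 0.0517, and both probe sets carry a suffix for sequence shared between transcripts.

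The other 7 complex I genes did not pass, and 6 of them had positive differences. The 6 were nduf-7 and gas-1, core subunits near the ubiquinone site, at 0.17 and 0.19, the accessory genes lpd-5, nuo-6 and nuo-4 at 0.20, 0.23 and 0.27, and nuo-2, of the core NDUFS3 type, at 0.26. By the probe sets used, each of these 6 had its 3 Au-NP values wholly above the control values, as did 21.1% of all genes and 688 of the 1712 brightest. For nuo-2 they were 12.67, 12.55 and 12.55 against 12.32, 12.34 and 12.33 in control arrays, with a limma adjusted p of 0.0643. For gas-1 the control arrays had 11.88, 11.93 and 12.05 and the Au-NP arrays 12.10, 12.07 and 12.26. The second gas-1 probe set gave 0.08, and there the groups overlapped. For nduf-7 the control arrays had 12.22, 12.19 and 12.22 and the Au-NP arrays 12.41, 12.47 and 12.27. The limma adjusted p of these 6 genes ran from 0.0643 to 0.224. The flavoprotein gene nuo-1, whose product takes electrons from NADH, had 12.04, 12.11 and 12.05 in control and 11.92, 12.09 and 12.07 in Au-NP arrays, which overlap. Its difference of -0.04 had a 95% interval of -0.22 to 0.14. For nuo-4, the limma adjusted p went from 0.0676 to 0.0487 after median centring and 0.0451 with trend and robust variances. For nuo-2 it was 0.0485 above the median level, 0.0467 with array weights and 0.0393 with trend and robust variances.

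Complex III held 6 measured genes, and none passed (0 higher and 0 lower by limma at an adjusted p of 0.05). The differences ran from -0.25 to 0.18, with a median of 0.02. At the top was isp-1, the Rieske iron-sulfur protein, with 13.54, 13.61 and 13.64 in control and 13.74, 13.84 and 13.76 in Au-NP arrays. These groups did not overlap, and the difference was 0.18 ± 0.07 (SE; limma adjusted p = 0.161, unadjusted 0.0388). The second isp-1 probe set gave 0.09, and there the groups overlapped. By the probe sets used, isp-1 was the only complex III gene with an unadjusted p under the threshold. Cytochrome c1, encoded by cyc-1, had 12.02, 12.01 and 11.94 against 11.71, 12.01 and 12.06, and its 2 probe sets gave -0.06 and 0.04. The core proteins ucr-1 and ucr-2.1 had 12.87, 12.92 and 12.90 against 13.03, 12.88 and 12.90, and 12.89, 12.91 and 12.82 against 12.94, 12.82 and 12.85. The core protein gene ucr-2.2 had 11.20, 11.04 and 11.17 against 11.06, 11.14 and 11.48. The lowest complex III gene, ucr-2.3, had 10.29, 10.60 and 10.72 against 10.51, 10.25 and 10.10, and its interval of -0.59 to 0.09 is the widest of the complex.

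The mobile electron carrier cytochrome c is encoded by cyc-2.1 and cyc-2.2. The cyc-2.1 signal was 14.08, 14.09 and 14.08 in control and 14.12, 14.19 and 14.26 in Au-NP arrays, so the groups were apart by a small margin (0.10 ± 0.07, SE; limma adjusted p = 0.450). For cyc-2.2 the control arrays had 7.13, 7.75 and 7.47 and the Au-NP arrays 7.97, 8.36 and 7.01. Au-NP replicate 3 was thus the lowest of the 6, and replicates 1 and 2 the highest. Over all arrays the difference was 0.33 ± 0.33 (SE), and without Au-NP replicate 3 it was 0.72 (limma adjusted p = 0.0279).

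None of the 7 nuclear-encoded subunits of complex IV passed (0 higher and 0 lower by limma, with 2 genes, cox-6A and cox-5B, at an unadjusted p of 0.0277 and 0.0440). Their differences lay between -0.08 and 0.18. At the upper end, cox-6A had 13.63, 13.67 and 13.63 in control and 13.83, 13.84 and 13.81 in Au-NP arrays, and its 3 probe sets gave 0.16 to 0.21. The lowest, cox-4, had 13.43, 13.43 and 13.36 against 13.36, 13.33 and 13.28. The gene cox-5B, also known in worms as cco-1, had 13.80, 13.83 and 13.88 in control arrays and lay between 13.99 and 14.01 in the 3 Au-NP arrays. The mean signals of these 7 probe sets lay between 13.1 and 13.9. Differences between such bright signals can be compressed on an array, but whether they were here was not tested.

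The factors that build complex IV gave the highest values of the set. Of the 6 measured, 3 were higher, 0 lower and 3 did not pass, beside 7.09% higher over all genes. The copper chaperone gene cox-17 had 8.86 in each of the 3 control arrays and 9.31, 9.37 and 9.48 in Au-NP arrays. The difference was 0.52 ± 0.08 (SE), a 1.44-fold rise, with a limma adjusted p of 0.00889, and the call held under each of the 15 alternatives in which it was refitted. For cox-19, a copper-related assembly factor in yeast, the control arrays spread over 8.19, 7.66 and 7.89 and the Au-NP arrays had 8.52, 8.50 and 8.35. The cox-19 difference was 0.54 ± 0.14 (SE), a 1.46-fold rise (limma adjusted p = 0.0432). For cox-11, which in yeast brings copper into the catalytic subunit, the values were 8.85, 8.96 and 8.96 against 9.46, 9.30 and 9.25. This is a rise of 0.41 ± 0.08 (SE), or 1.33-fold (limma adjusted p = 0.0240).

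The calls of cox-11 and cox-19 were lost without most of the single arrays, while the sizes of their differences were kept. Leaving out an array gave 0.35 to 0.45 for cox-11 and 0.42 to 0.68 for cox-19. When each array was left out in turn, the cox-11 call held in 1 case, without Au-NP replicate 3, and its limma adjusted p otherwise lay between 0.0610 and 0.0832. The gene cox-19 kept its call without control replicate 1 and without Au-NP replicate 3, and otherwise had 0.107 to 0.146. With the replicate block cox-11 had a limma adjusted p of 0.0567. The haem A synthesis genes cox-10 and cox-15 had differences of 0.32 and -0.05. The cox-10 arrays read 7.55, 7.56 and 7.41 in control and 7.82, 8.01 and 7.63 in Au-NP, apart but not past the threshold (limma adjusted p = 0.111). For cox-15 they read 9.56, 9.60 and 9.63, and 9.73, 9.48 and 9.42. The membrane insertion factor gene cox-18 had 0.13.

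**Figure D2:**
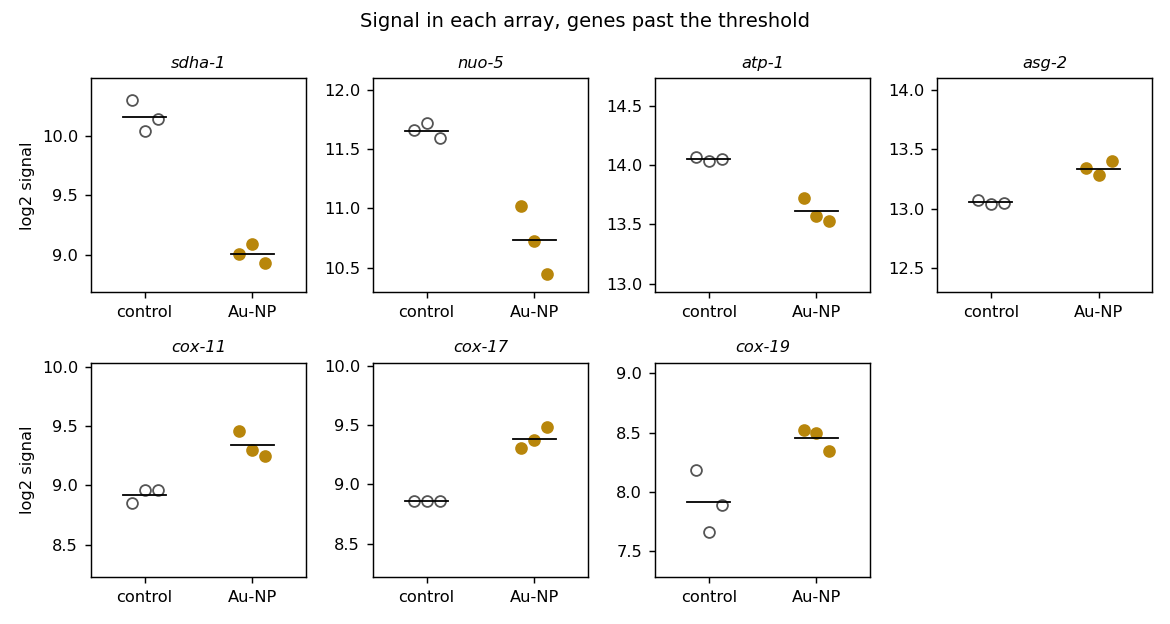
Log2 signal in each of the 3 control (open) and 3 Au-NP (filled) arrays for the 7 respiratory chain genes past the threshold; lines are group means, and every panel spans the same 1.8 log2 units. The groups do not overlap in any panel, and the gap between their nearest values is 0.95 in sdha-1 and 0.57 in nuo-5. In cox-19 the controls spread from 7.66 to 8.19.

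In the ATP synthase the alpha subunit gene was lower and the beta subunit gene was not called. These subunits alternate in the catalytic head of the enzyme. The alpha gene, atp-1, had 14.07, 14.03 and 14.05 in control and 13.72, 13.57 and 13.53 in Au-NP arrays, so that the groups lay 0.30 log2 units apart at their nearest values. Its difference was -0.44 ± 0.08 (SE), a 1.36-fold fall (limma adjusted p = 0.0162). The beta gene, atp-2, which carries the catalytic sites, had 14.29, 14.30 and 14.32 against 14.27, 14.17 and 14.28. Its difference of -0.06 had a 95% interval of -0.23 to 0.11, which does not reach the atp-1 interval of -0.63 to -0.25, although the difference between them was not itself tested. The call of atp-1 was lost without any 1 of the control arrays or without Au-NP replicate 2, with a limma adjusted p of 0.0564 to 0.0769. It has a single probe set, with the suffix for shared sequence.

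The stalk and membrane subunits of complex V differed in sign. The subunit b gene asb-2 had 12.79, 12.65 and 12.69 in control and 12.49, 12.41 and 12.34 in Au-NP arrays, a difference of -0.30 ± 0.08 (SE; limma adjusted p = 0.0554). The groups did not overlap, and the limma adjusted p was 0.0316 to 0.0420 with a second quantile normalization, the filter on low probe sets, array weights, trend and robust variances or removal of the span trend. The second subunit b gene, asb-1, described in worms as the germ-line form, had 10.35, 10.47 and 10.32 against 10.70, 10.69 and 10.42. Au-NP replicate 3 lay within the controls there, and the difference went from 0.23 (limma adjusted p = 0.199) to 0.32 without it (0.0489). The subunit g gene asg-2 was the only complex V gene called higher, with 13.07, 13.04 and 13.05 against 13.34, 13.28 and 13.40. That is a rise of 0.28 ± 0.07 (SE), or 1.22-fold (limma adjusted p = 0.0452). The asg-2 call was lost when any 1 array was left out (limma adjusted p 0.0875 to 0.130), with the replicate block (0.0865), after a second quantile normalization (0.0791) and after removal of the span trend (0.267).

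The other complex V genes did not pass. The second subunit g gene, asg-1, had 11.56, 11.47 and 11.48 in control and 11.71, 11.75 and 11.72 in Au-NP arrays, a difference of 0.23 ± 0.07 (SE; limma adjusted p = 0.0815). With array weights the limma adjusted p of asg-1 was 0.0449. The second asg-1 probe set gave 0.11 (limma adjusted p = 0.498), and there the groups overlapped. The mean of the asg-1 probe sets gave 0.17 (limma adjusted p = 0.202). The stalk genes atp-3 (OSCP), atp-4 (coupling factor 6) and atp-5 (subunit d) had 0.10, 0.13 and -0.02, and the 3 probe sets of atp-5 ran from -0.08 to 0.05.

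The subunits of all 5 complexes were also sorted by role, beside shares of 4.45% lower and 7.09% higher over all genes. Of the 16 large or catalytic subunits 3 were lower and 0 higher (2 were higher at an unadjusted p under 0.05), with a median difference of -0.02 and a range of -1.15 to 0.26. Of the 19 small subunits 0 were lower and 1 was higher, with a median of 0.10 and a range of -0.30 to 0.28. At an unadjusted p under 0.05, 1 small subunit gene was lower, asb-2, and this gene passed the adjusted threshold as lower under the 5 alternatives named above. In 11 of the 19 small subunits the Au-NP values lay wholly above the controls, as they did in 4 of the 16 large ones. They also did in 21.1% of all genes, in 688 of the 1712 brightest genes and in 1387 of the 5106 genes up to 1500 bp. The Au-NP values lay wholly below the controls in 4 of the 16 large subunits, atp-2 among them by a small margin. They did so in 1 of the 19 small ones and in 9.5% of all genes. The remaining 8 members, assembly factors and cytochrome c, had a median of 0.32. Over all genes the median was 0.04. The difference between these classes was not tested, because genes are not replicates. The median of the large class kept its sign without each of 5 arrays and was 0.0032 without Au-NP replicate 1.

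No subunit encoded in the mitochondrial genome was called. Of the 12 protein-coding mitochondrial genes in the reference table, 8 had a probe set of their own, and 0 passed in either direction by limma (0 at an unadjusted p under 0.05). They were ND1, ND4 and ND5 of complex I, CYTB of complex III, COX1, COX2 and COX3, which form the core of complex IV, and ATP6 of complex V. Their differences ran from -0.07 for COX2 to 0.09 for ND1. The COX1 signal was 13.58, 13.36 and 13.30 in control and 13.36, 13.44 and 13.39 in Au-NP arrays, and the groups overlapped for each of the 8. The 95% interval for COX1 was -0.24 to 0.19, which does not reach the rise of 0.52 seen for cox-17.

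Other nuclear genes of the pathway were taken from lists of 47 genes, of which 44 were measured. In all 6 were higher and 2 lower, beside 7.09% and 4.45% of all genes, and the median difference was 0.12. Among 11 assembly and biogenesis genes 4 were higher and 0 lower. These were coa-5 at 0.44 ± 0.07, coa-7 at 0.40 ± 0.08 and coa-3 at 0.37 ± 0.08 (SE), whose human counterparts act in complex IV assembly, and nuaf-3, a complex I assembly factor, at 0.33. The limma adjusted p of these 4 ran from 0.0130 to 0.0495. The rest of the list did not pass, with nuaf-1 at 0.32, bcs-1 at 0.20, coa-6 at 0.15, sco-1 at 0.07 and cchl-1 at 0.05. Negative differences were those of sft-1 (-0.12) and coa-4 (-0.14). The limma adjusted p of the genes that did not pass ran from 0.0909 to 0.758. In coa-5 the control arrays read 8.89 at most and the Au-NP arrays 9.27 at least. Of the 5 further complex I subunits measured, nduf-5 was higher (0.35 ± 0.08, SE; limma adjusted p = 0.0324).

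Among 6 genes that shape the inner membrane 2 were lower and 1 was higher, where over all genes 4.45% were lower and 7.09% higher. Of these, immt-1, the mitofilin that organises cristae junctions, was lower at -0.68 ± 0.09 (SE; limma adjusted p = 0.00631). Its partner chch-3 was lower at -0.45 ± 0.07 (0.0117). A further member of that complex, moma-1, was higher at 0.38 ± 0.07 (0.0177). The other mitofilin gene, immt-2, had -0.50 (limma adjusted p = 0.0741), and the prohibitin genes phb-1 and phb-2 had -0.01 and 0.15 (0.977 and 0.406). No gene of ubiquinone synthesis (7 measured), of the carriers (5), of mitochondrial DNA upkeep and import (7), or among the extra ATP synthase genes and inhibitors (3) passed the threshold. At an unadjusted p under 0.05, limma had 3, 0, 3 and 1 of them higher, and 1 lower, the ATPase inhibitor gene mai-1.

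**Figure D3:**
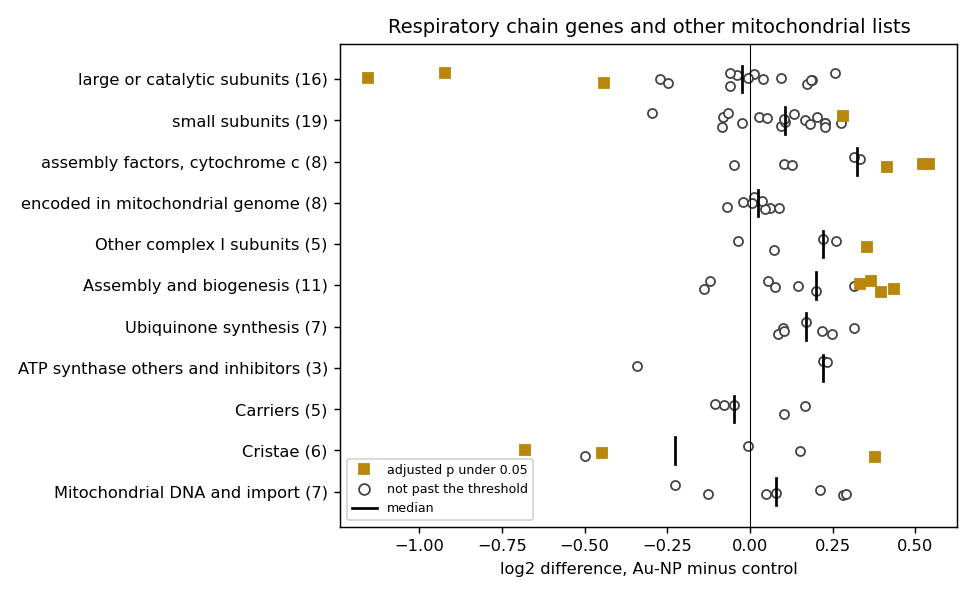
Log2 difference (Au-NP minus control) of each measured gene, by role; squares passed an adjusted p of 0.05, circles did not, and bars mark medians, with the number of genes in brackets. The 8 genes of the mitochondrial genome lie between -0.07 and 0.09, and the large subunits and cristae genes reach furthest to the left.

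Related genes for the same subunit were compared within each array. For sdha-1 over sdha-2 the log2 ratio of signals was 1.13, 0.60 and 0.59 in control and -0.30, 0.12 and -0.14 in Au-NP arrays. The groups did not overlap, and the change of sdha-1 was lower than that of sdha-2 by 0.88 log2 units (difference -0.88; exact permutation p = 0.1, two-sided, the smallest that 3 against 3 arrays allow, and 0.35 adjusted over 7 pairs). With the mean of each gene's probe sets this difference was -0.46. For asb-1 over asb-2 the ratio was -2.44, -2.18 and -2.37 in control and -1.79, -1.72 and -1.91 in Au-NP arrays. Again the groups did not overlap, with a difference of 0.52 (exact permutation p = 0.1, adjusted 0.35). The other 5 pairs overlapped, with exact permutation p from 0.3 to 0.7. Among them, the ratio of asg-1 to asg-2 differed by -0.06, with SDs of 0.04 in the control and 0.07 in the Au-NP arrays. This permutation test cannot reach the threshold with 3 arrays per group.

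**Figure D4:**
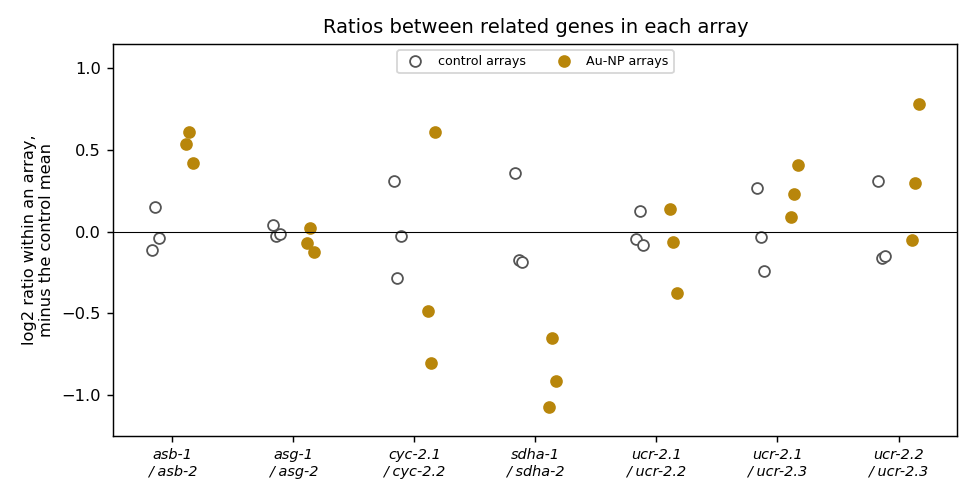
Log2 ratio between the signals of 2 related genes in each array, with the mean of the control arrays set to 0; open points are control and filled points Au-NP arrays. In the pairs asb-1 with asb-2 and sdha-1 with sdha-2 the groups are apart, and in the other 5 they overlap.

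Differences on these arrays vary with gene span (the distance from a gene's start to its end, introns counted), and this touches the respiratory chain genes because many are short. Their median span was 1599 bp against 2185 bp for all genes. Of the 21 members up to 1500 bp, 3 were higher and 0 lower, and of all 5106 genes of that span 10.6% were higher and 1.19% lower. Of the 22 longer members 1 was higher and 3 were lower, and of all 11972 longer genes 5.58% were higher and 5.82% lower. The 3 lower members spanned 2379 bp (atp-1), 3265 bp (sdha-1) and 8067 bp (nuo-5, the longest of the 43), while cox-10, at 6812 bp, had 0.32. With the trend on span taken out of every array, sdha-1 had -1.19, nuo-5 -0.86, atp-1 -0.51, cox-17 0.41 and cox-11 0.36, all past the threshold. The gene cox-19 was then at 0.42 (limma adjusted p = 0.115), and the member counts were 2 higher and 4 lower. The fourth lower gene was asb-2. The median of the 43 genes was then -0.008, that of the large subunits -0.0866 and that of the small ones 0.0077, so the small positive median of the whole set was not kept. After a second quantile normalization the counts were 3 higher and 4 lower.

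**Figure D5:**
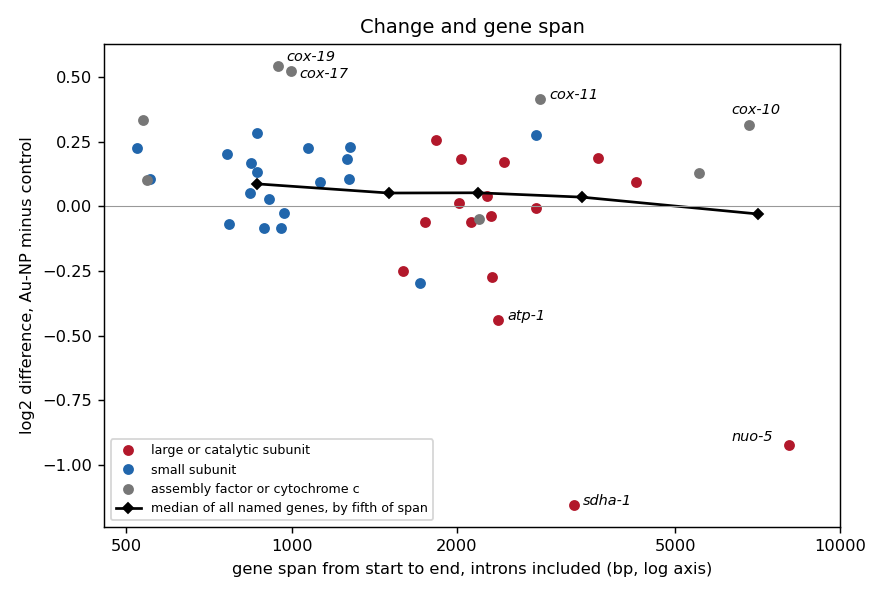
Log2 difference (Au-NP minus control) of the 43 genes against gene span on a log axis, coloured by role, with the median of all named genes in 5 equal groups of span (diamonds). The line runs from 0.09 in the shortest genes to -0.03 in the longest, and sdha-1, nuo-5 and atp-1 lie far below it.

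Ribosomal proteins of the mitochondrion, which make the subunits encoded in its genome, are set beside these genes for scale. Of 59 mitochondrial ribosomal protein genes 15 were higher and 0 lower, with a median difference of 0.23. Of 75 cytosolic ribosomal protein genes 0 were higher and 0 lower by limma (1 and 1 at an unadjusted p under 0.05), with a median of 0.07. Over all genes 7.09% were higher and 4.45% lower, and over genes up to 1500 bp 10.6% and 1.19%, where the median span was 1129 bp for the mitochondrial and 756 bp for the cytosolic family. The difference between these families and the respiratory chain genes was not tested.

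Of the 14 members with more than 1 probe set, 11 had the same sign in all of them. The 3 others, atp-5, cyc-1 and sdhb-1, lay within 0.08 of 0 in every probe set. The probe sets used for 20 of the 43 genes carry a suffix for sequence shared between transcripts or genes, nuo-5 and atp-1 among them. The probe sets of sdha-1, cox-11, cox-17, cox-19 and asg-2 do not.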

How the data were processed

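RNA from 6 dishes of whole worms was measured on 6 arrays. The deposited values are 1 log2 signal per probe set and array. Per the submitters' processing notes the authors used RMA, and Partek 6.4 is named there with no role. The log2 scale was inferred from the values, which ran from 3.44 to 15.2. The genome build behind the array is not given in the sources used here.

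The 77 Affymetrix control probe sets of 22625 were left out. Gene names came from the platform annotation, and each gene was represented by its probe set of highest mean. The group difference was fitted with limma 3.58.1 under R 4.3.3 (group alone in the model, 4 residual degrees of freedom plus a prior of 3.39, two-sided). P-values were adjusted by Benjamini-Hochberg over 22548 probe sets, with 0.05 as the threshold. The model was tested on simulated data. Paralogs were compared by an exact permutation test of their log2 ratio within arrays. Gene span came from the reference gene table of assembly WBcel235. Values in every array were to be given for genes past the threshold, the large or catalytic subunits, the paralogs and the extremes of each complex.

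The members, the lists and the alternatives were chosen with earlier results of these data known. The list of mitochondrial genome genes was redrawn as all protein-coding genes of that genome once the symbols in the annotation were seen, and the comparison with the brightest genes was also added later. The alternatives were a replicate block, leaving out each array, a second quantile normalization, median centring, a filter on low probe sets, leaving out probe sets with a cross-hybridization suffix, array weights, trend and robust variances, removal of the trend with gene span, averaging the probe sets of a gene, and other thresholds. Counting any probe set of a gene was added later. Replicate numbers were not used as a pairing in the main fit. The deviations of same-numbered arrays from their group means correlated at -0.33, 0.43 and 0.22. So few values cannot tell whether the arrays were paired. No 2 arrays shared more than 15 of the 22548 values.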

Additional observations from a re-analysis of the deposited data

How the results depend on the processing

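No alternative reversed a called member. The genes sdha-1 and cox-17 kept their call under each of their 15 alternatives, and of the 7 called members the others lost it under 1 (nuo-5), 4 (atp-1), 5 (cox-19), 6 (cox-11) and 9 (asg-2). The count of 4 higher members was 2 with the replicate block, 2 without the span trend, 7 with array weights, 7 with trend and robust variances, and 7 and 1 at adjusted p of 0.1 and 0.01. The count of 3 lower members was 1 without probe sets of a cross-hybridization suffix, which left 25 members, and 1 at an adjusted p of 0.01. With each array left out in turn these counts ran from 1 to 6 and from 1 to 3. Over all probe sets the counts of 1408 higher and 1281 lower ran from 146 to 2047 and from 410 to 1953. They were 2372 higher with array weights, 738 higher and 1100 lower without the span trend, and 628 lower without suffixed probe sets. Leaving out an array ran the medians from 0.0594 to 0.1311 (all members), -0.0707 to 0.0032 (large subunits) and 0.0911 to 0.1462 (small subunits). A second quantile normalization gave 0.0766 for all members and -0.0688 for large subunits, and removal of the span trend -0.008, -0.0866 and 0.0077. Leaving out an array gave paralog differences of -0.992 to -0.7017 (sdha-1 minus sdha-2) and 0.4677 to 0.5975 (asb-1 minus asb-2), and the mean of probe sets gave -0.4568 for the first. The cause of these shifts was not tested. Classes by protein length were not run. The number of arrays limits what small differences can show, and any compression of bright signals was not tested.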
